A study of Mus musculus with 6 samples.

Results

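Most miRNAs are cut from a long primary transcript by the nuclear enzyme Drosha with its partner Dgcr8, and the hairpin is then trimmed by Dicer. A few skip the Drosha step. The hairpins of miR-320 and miR-484 are described as short transcripts made directly by RNA polymerase II, and in miR-320 the arm that carries the cap is little used. Mirtrons such as miR-877 and miR-1224 are short introns whose ends are set by splicing, after which the debranched intron folds into a hairpin that Dicer can cut.

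The 4 rows described here were chosen by name from the deposited miRNA table of 1482 rows: mmu-miR-320-3p and mmu-miR-484, from capped or short hairpins, and mmu-miR-877-5p and mmu-miR-1224-5p, from mirtrons. All 4 were in the table and all 4 were among the 614 rows that passed the filter on low counts. The series profiled small RNAs of mouse spinal cord. The 3 control-labelled libraries stand for mice with a laminectomy at T10 and no cord injury, and the 3 SCI-labelled libraries for mice that also had a moderate contusion at T10 from a weight of 10 g dropped 20 mm. Strain and age were not given in the sources used here. Tissue was collected on day 2 as a piece about 1 cm long that held the T10 level, so each library mixes every cell type of the cord with blood and tissue left on the sample. In such bulk samples, fewer cells of a type and less RNA per cell cannot be told apart.

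The labels were checked before any direction was read. miR-21a-5p, which is widely described as rising in injured tissue, was 8.34-fold lower in the SCI-labelled libraries (edgeR quasi-likelihood adjusted p = 7.02e-05), and the myeloid miR-223-3p was 13.5-fold lower, against the labels. In the deposited table the columns of the SCI-labelled samples carry names that begin with Normal. Groups are therefore called the control-labelled and SCI-labelled libraries throughout, and every direction is that of the labels. Total counts were 5568491 to 8889977 per library. Control-labelled library 3 stood apart from the others of its group: skeletal muscle markers took 4.35% of its counts against 0.783% and 1.18%.

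The sequences give the seed and the GC content of the rows that could be matched. RefSeq sequences on GRCm38.p6 were matched by name for 3 of the 4 rows, and miR-320-3p had no entry. Capitals mark the seed, bases 2 to 8, which pairs with targets.
miR-484: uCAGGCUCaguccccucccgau
miR-877-5p: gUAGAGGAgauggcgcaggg
miR-1224-5p: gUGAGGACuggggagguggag
miR-877-3p: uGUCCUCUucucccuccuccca
The first 3 of these have a GC content of 63.6%, 65% and 66.7%, against a median of 47.8% over the 521 tested rows that matched the same reference. A GC content at or above that of miR-484 was held by 11.1% of those rows. None of these seeds was shared with another of the 1679 mature names in the reference, so no seed partner could be followed.

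The hairpins of both mirtrons are shown whole because their ends are intron ends. Capitals mark the first 2 and the last 2 bases, the GU and AG of an intron.
Mir877: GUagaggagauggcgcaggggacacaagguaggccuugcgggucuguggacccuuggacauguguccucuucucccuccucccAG
Mir1224: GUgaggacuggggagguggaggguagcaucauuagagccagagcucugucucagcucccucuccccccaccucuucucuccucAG
Mir877 lies at chr17:35960730-35960814 on the minus strand and Mir1224 at chr16:20604452-20604536 on the plus strand. In GENCODE M21 (GRCm38) these are exactly the bounds of an intron of Abcf1, which encodes an ABC protein of translation initiation, and of an intron of Vwa5b2. Of 1005 hairpins in the reference, 16 (1.59%) filled an annotated intron to within 3 bases at each end, and 30 (2.99%) began with GU and ended with AG. A match of these letters is a description and not evidence of splicing in these samples.

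The other hairpins have no host on their strand in that annotation. Mir484 lies at chr16:14159626-14159692 on the plus strand, 3582 bases before the annotated start of Nde1, a dynein regulator gene on the same strand. Mir320 lies at chr14:70443510-70443591 on the plus strand, with 62 bases between it and the start of Polr3d, an RNA polymerase III subunit gene read from the opposite strand. The Mir484 hairpin is shown with its mature miRNA, which lies on the 5′ side, in capitals.
Mir484: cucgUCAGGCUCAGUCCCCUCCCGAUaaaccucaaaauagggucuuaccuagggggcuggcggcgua

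miR-320-3p was the member that differed between the groups. It was at 383, 502 and 261 CPM (read counts scaled to library depth, here with TMM factors) in control-labelled libraries 1, 2 and 3 and at 156, 239 and 194 CPM in the SCI-labelled ones. Every control-labelled library was above every SCI-labelled one, though library 3 of the control-labelled group came close to the highest of the others. Means were 382 ± 121 and 196 ± 41.3 CPM (SD, n = 3 each), a level 1.95-fold lower under the SCI label (log2 -0.96, SE 0.28, 95% interval -1.61 to -0.32; edgeR quasi-likelihood adjusted p = 0.0269). The call was lost when any library but control-labelled library 3 was left out, with adjusted p-values from edgeR of 0.0557 (without SCI-labelled 2) to 0.111 (without SCI-labelled 1). Values were 0.0676 and 0.0855 without control-labelled 1 and 2, and 0.101 without SCI-labelled 3. Without control-labelled library 3 the change was -1.13 (adjusted p = 0.000909).

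miR-484, the other member from the capped or short hairpins, did not pass the test. Control-labelled libraries 1, 2 and 3 had 104, 131 and 161 CPM, and SCI-labelled libraries 1, 2 and 3 had 113, 99.7 and 83.9 CPM. The groups overlapped, since control-labelled library 1 was below SCI-labelled library 1. Means were 132 ± 28.5 and 98.7 ± 14.3 CPM (SD, n = 3 each), with a log2 change of -0.42 (95% interval -0.94 to 0.11; edgeR adjusted p = 0.201). The interval reaches from no difference to nearly that fitted for miR-320-3p. Without control-labelled library 3, in which miR-484 was highest, the change was -0.20 (adjusted p = 0.44).

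Neither mirtron row passed the test. miR-1224-5p, from the Vwa5b2 intron, was at 87.3, 92 and 50.8 CPM under the control label and at 69.5, 78.9 and 66.5 CPM under the SCI label, each in the order of library number. The SCI-labelled values lay inside the range of the control-labelled ones. Means were 76.7 ± 22.6 and 71.6 ± 6.47 CPM (SD, n = 3 each), with a log2 change of -0.10 (95% interval -0.68 to 0.49; edgeR adjusted p = 0.779). miR-877-5p, from the Abcf1 intron, was at 25.5, 28.6 and 12.7 CPM and at 18.2, 22 and 18.1 CPM. Here too the SCI-labelled values lay inside the control-labelled range. Means were 22.3 ± 8.41 and 19.5 ± 2.22 CPM (SD, n = 3 each), with a log2 change of -0.19 (95% interval -0.90 to 0.52; edgeR adjusted p = 0.659). The intervals of both mirtrons span 0 and are wide, so equal levels were not shown.

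**Figure D1:**
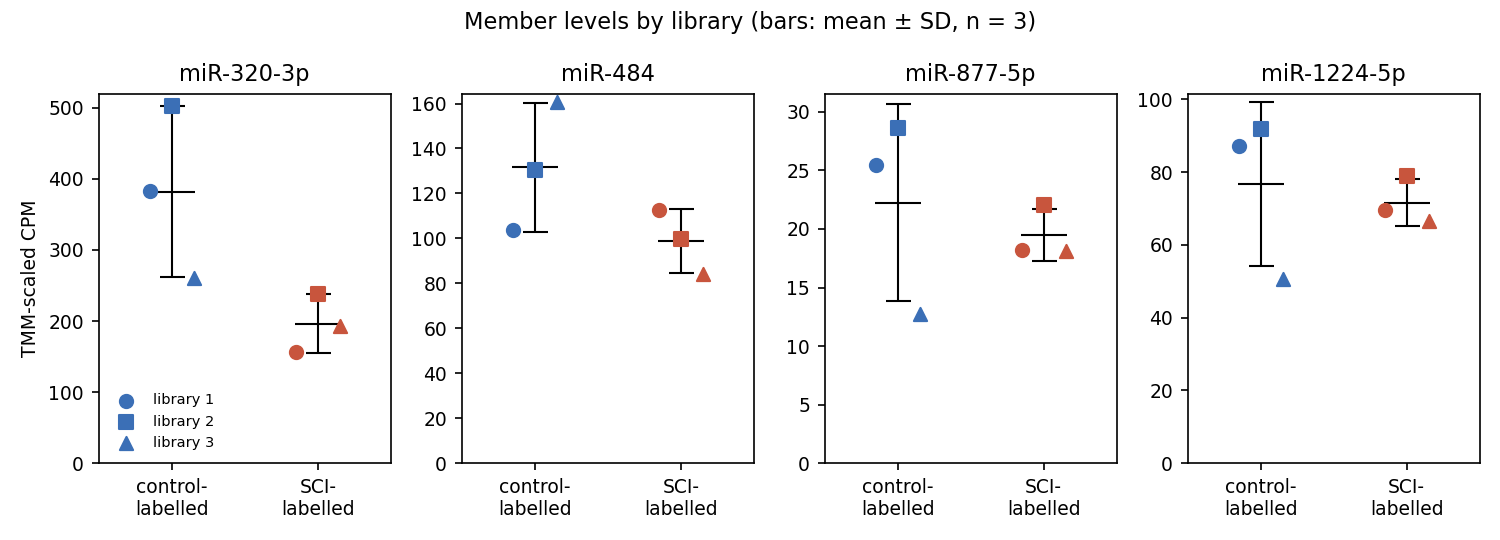
TMM-scaled CPM (y axes from 0) of the 4 members in the 3 control-labelled and 3 SCI-labelled libraries, with symbols for library numbers and bars for the mean ± SD (n = 3). The groups are apart for miR-320-3p (261 to 502 against 156 to 239 CPM) and overlap for the others, and control-labelled library 3 is the lowest of its group in all but miR-484.

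In all, 0 members were higher and 1 of 4 was lower in the SCI-labelled libraries. Over all tested rows 39.4% were called, 16.3% higher and 23.1% lower, so the share among the members is near the background. DESeq2 and limma voom also called miR-320-3p and no other member, and at an unadjusted edgeR p under 0.05 there was again 1. The members' median log2 change was -0.30, against -0.07 over all tested rows. Groups did not overlap for 1 of 4 members and for 51.3% of all tested rows.

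The order of the read levels was miR-320-3p, miR-484, miR-1224-5p and miR-877-5p, at ranks 155, 220, 246 and 350 of 614 by mean CPM. Within each group no neighbours in this order overlapped. Read levels of different miRNAs also carry the cloning preference of each sequence, so the order is one of reads. miR-320-3p counting error was small beside the spread between libraries: in control-labelled library 1 its 2391 reads made 363 CPM of the unscaled total, with an exact 95% binomial interval of 348 to 377, and the libraries ranged from 160 to 498 unscaled CPM. For miR-877-5p, with 108 to 160 reads per library, the interval in control-labelled library 3 was 12 to 17.7 unscaled CPM. These intervals cover counting error only.

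Ratios between members within a library do not depend on how libraries are scaled. There were 5.46 reads of miR-320-3p per read of miR-1224-5p in control-labelled library 2, 5.15 in library 3 and 4.39 in library 1, against 2.25, 3.03 and 2.91 in SCI-labelled libraries 1, 2 and 3. The groups did not overlap, and control-labelled library 3 sat among the others of its group. The ratio was 1.84-fold lower in the SCI-labelled group (exact two-sided permutation p = 0.1, the smallest that 3 against 3 allows; 0.275 adjusted over the 11 ratios computed). The ratio of miR-320-3p to miR-877-5p did the same, at 15, 17.6 and 20.5 against 8.58, 10.8 and 10.7 (exact permutation p = 0.1, adjusted 0.275).

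The mirtron pair kept a steady ratio. Reads of miR-877-5p per read of miR-1224-5p were 0.292, 0.311 and 0.251 under the control label and 0.262, 0.279 and 0.273 under the SCI label. The log2 ratio had an SD of 0.11 over the 6 libraries and a group difference of -0.06 (exact permutation p = 0.5, adjusted 0.611). Both rows were low together in control-labelled library 3. This pair was chosen after values were seen, and the spread of such ratios over all pairs of rows was not computed. The 5 other tested rows of the mirtron list had log2 changes from -0.09 (miR-1982-3p) to 0.87 (miR-1981-5p). The pair from capped or short hairpins did not keep a steady ratio. Reads of miR-484 per read of miR-320-3p were 0.271, 0.26 and 0.615 under the control label and 0.72, 0.418 and 0.434 under the SCI label, with an SD of 0.60 on the log2 scale. The groups overlapped through control-labelled library 3, and the group difference was 0.53 (exact permutation p = 0.3, adjusted 0.413). Without that library it was 0.94, with a smallest possible exact p of 0.2 for 2 against 3.

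**Figure D2:**
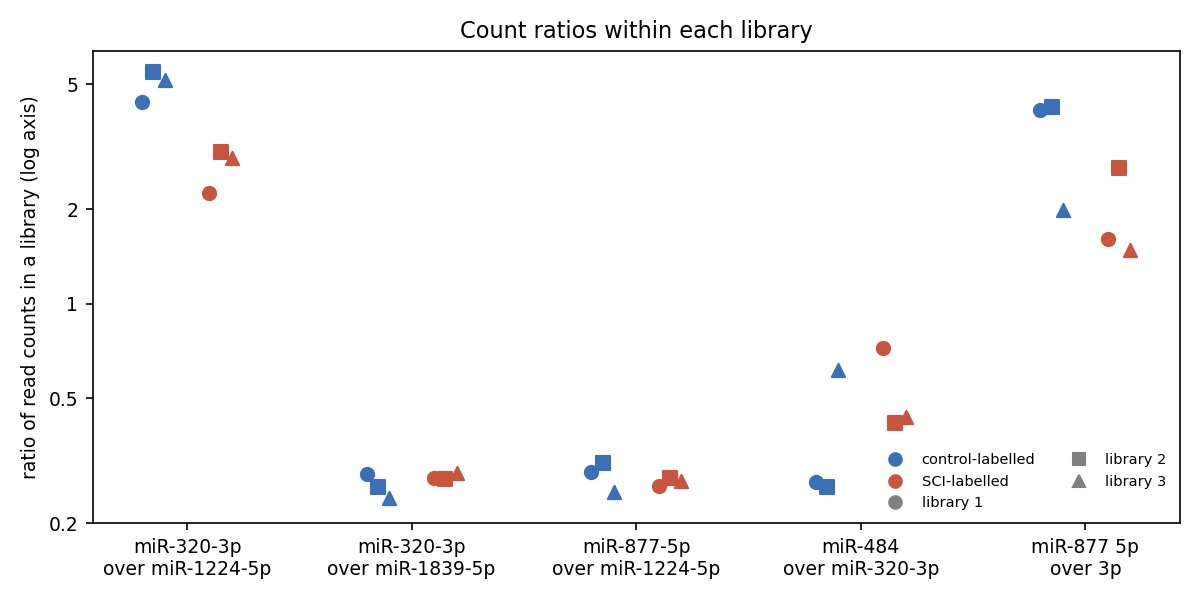
Ratios of raw read counts within each library (log axis), for 5 pairs of rows, control-labelled in blue and SCI-labelled in red, with symbols for library numbers. miR-320-3p over miR-1224-5p parts the groups (4.39 to 5.46 against 2.25 to 3.03), while miR-320-3p over miR-1839-5p and miR-877-5p over miR-1224-5p stay within narrow bands. miR-1839-5p was picked as the row nearest to miR-320-3p in these same libraries, so the narrow band of their ratio follows from that choice.

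The arms of the hairpins were used very unequally. miR-320-5p had 2 reads in all 6 libraries together, against 11894 of miR-320-3p. miR-1224-5p held 99.1% of its hairpin's reads, with 3 to 8 reads of the 3p arm per library, so that neither minor arm could be tested. miR-877 used both arms, with 874 reads of the 5p and 380 of the 3p arm, 69.7% on the 5p side.

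miR-877-3p was higher in the SCI-labelled libraries while the member from the same intron, miR-877-5p, did not pass. Its counts were 38, 37 and 54 under the control label and 91, 52 and 108 under the SCI label, and its CPM values did not overlap between the groups. The fitted log2 change was 0.73 (SE 0.25; edgeR adjusted p = 0.0487), just past the threshold. It was lost without control-labelled library 1 or 2 (0.0796 and 0.0844) or SCI-labelled library 1 or 3 (0.138 and 0.173), with the library total as the scaling (0.108), with no filter (0.112), with limma on log2(TPM + 1) (0.123) or log2(TPM + 10) (0.116), with the replicate number as a block (0.109), and with red cell, muscle and miR-21a rows left out (0.0557). The ratio of 5p to 3p reads, with 0.5 added to each count, was 4.14, 4.23 and 1.99 under the control label and 1.61, 2.71 and 1.48 under the SCI label. The groups overlapped through control-labelled library 3 and SCI-labelled library 2, and the difference between arms was not beyond the spread (log2 -0.81, exact permutation p = 0.2, adjusted 0.413). Among 179 hairpins with both arms tested, the difference between the fitted changes of the arms of miR-877, 0.91 in size, ranked 59, and the median size was 0.65.

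miRNAs of unusual origin other than the members were followed in lists of mirtrons, capped or short hairpins and miRNAs cut from small nucleolar RNAs. Membership rests on general knowledge and is partly uncertain. The lists held 21 rows, among them the opposite arms of 3 members' own hairpins. Without those arms there were 18 rows, of which 11 passed the filter; 2 were higher (miR-3102-3p and miR-664-3p), 1 was lower (miR-1839-5p) and 8 did not pass. Among all tested rows 16.3% were higher and 23.1% lower. The median log2 change of the 11 was 0.53, against -0.07 over all tested rows. With miR-877-3p, the tested opposite arm, 3 of 12 were higher and the median was 0.55. Of the 11, 4 had a log2 change below 0, as did all 4 members and 320 of the 614 tested rows. With upper quartile scaling that sign turned for miR-1224-5p (0.0084).

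Among the mirtron-list rows, miR-3102-3p was higher. It had 92, 102 and 98 reads under the control label and 182, 221 and 204 under the SCI label, with no overlap (log2 0.84, SE 0.27; edgeR adjusted p = 0.0372). The call was lost without control-labelled library 1 (0.0702) or SCI-labelled libraries 1, 2 or 3 (0.0552, 0.133 and 0.0689), and with limma voom (0.0508). miR-1981-5p, the most abundant mirtron row at a mean of 600 CPM, missed the threshold with a fitted log2 change of 0.87 (edgeR adjusted p = 0.0847). miR-1982-3p, from an intron of the polyamine regulator gene Oaz1, stood at -0.09 (adjusted p = 0.843).

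The 3 tested miR-344 rows of the capped list did not pass, with log2 changes of 0.51 to 0.66 and edgeR adjusted p-values of 0.0574 to 0.282. Of the snoRNA list, miR-664-3p was higher (log2 0.78; edgeR adjusted p = 0.0433) and miR-1839-5p was lower (log2 -1.05; 0.0145). The call of miR-664-3p held when control-labelled library 3 was left out and was lost without any other library, with adjusted p-values up to 0.167, and with the library total (0.111), a mean of at least 50 CPM (0.0507), limma on log2(TPM + 1) (0.0996) or log2(TPM + 10) (0.103), the replicate number as a block (0.0686), or red cell, muscle and miR-21a rows left out (0.0525). The call of miR-1839-5p was lost without SCI-labelled library 1 or 3 (0.0666 and 0.0707). The opposite arms miR-664-5p (-0.46, adjusted p = 0.209) and miR-1839-3p (-0.00042, adjusted p = 0.998) did not pass.

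**Figure D3:**
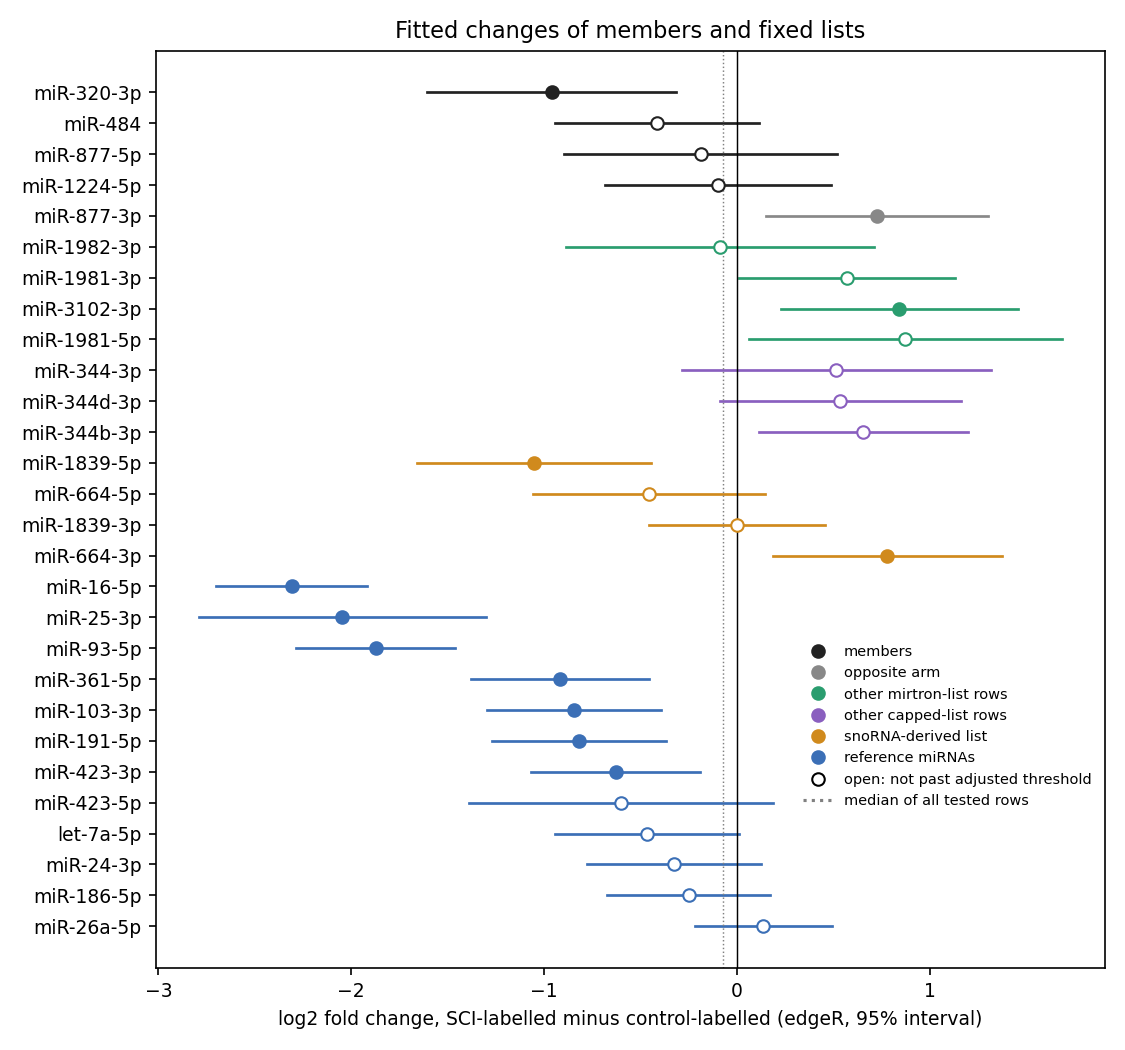
Fitted log2 fold changes (x axis, SCI-labelled minus control-labelled) with 95% intervals for the members, the tested opposite arm, the other unusual hairpins and the reference miRNAs, filled where past the adjusted threshold. miR-320-3p (-0.96) and miR-1839-5p (-1.05) are lower, miR-877-3p (0.73), miR-3102-3p (0.84) and miR-664-3p (0.78) higher, and 7 of 12 reference miRNAs are lower.

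miR-484 and miR-320 are often used, with a set of other miRNAs, as stable references in qPCR. Of 12 such reference rows, all tested, 0 were higher, 7 were lower and 5 did not pass. The shares of all tested rows were 16.3% higher and 23.1% lower. DESeq2 and limma voom called 0 of the 12 higher as well. The median log2 change was -0.72, with a range from -2.31 for miR-16-5p to 0.14 for miR-26a-5p. miR-16-5p had 11572, 10988 and 15463 reads under the control label and 3196, 2414 and 3285 under the SCI label (edgeR adjusted p = 7.02e-05). The fitted change of miR-484 (-0.42) was nearer to 0 than the median of this list and that of miR-320-3p (-0.96) was not. The count of 7 was 4 without SCI-labelled library 1 or 3 and 10 without control-labelled library 3.

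The rows whose profile over the 6 libraries was most like that of each member were sought among 412 rows with a mean of at least 10 CPM. The members and their opposite arms were left out of these candidates. Both mirtron rows, whose log2 ratio had an SD of 0.11, were thus not compared with each other here. Likeness was measured by the root mean square difference of centred log2 CPM. For miR-320-3p the nearest candidates were miR-1839-5p (0.0906), miR-146a-5p (0.0967) and miR-501-3p (0.132), against a median of 0.72 over all candidates. The likeness to miR-1839-5p was close in every library: there were 0.286, 0.26 and 0.241 reads of miR-320-3p per read of miR-1839-5p under the control label and 0.278, 0.277 and 0.289 under the SCI label. miR-1839-5p was also on the snoRNA list, and its mature sequence, with the seed in capitals, shows a GC content of 40.9%.
miR-1839-5p: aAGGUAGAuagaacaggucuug
For miR-484 the nearest rows were miR-9-3p (0.0977), miR-667-3p (0.125) and miR-34c-5p (0.154). For miR-877-5p they were let-7i-5p (0.144), let-7f-5p (0.2) and miR-423-5p (0.216), and for miR-1224-5p they were miR-219a-2-3p (0.146), let-7i-5p (0.149) and miR-22-5p (0.156). These are descriptions of 6 libraries, chosen as the nearest of many.

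**Figure D4:**
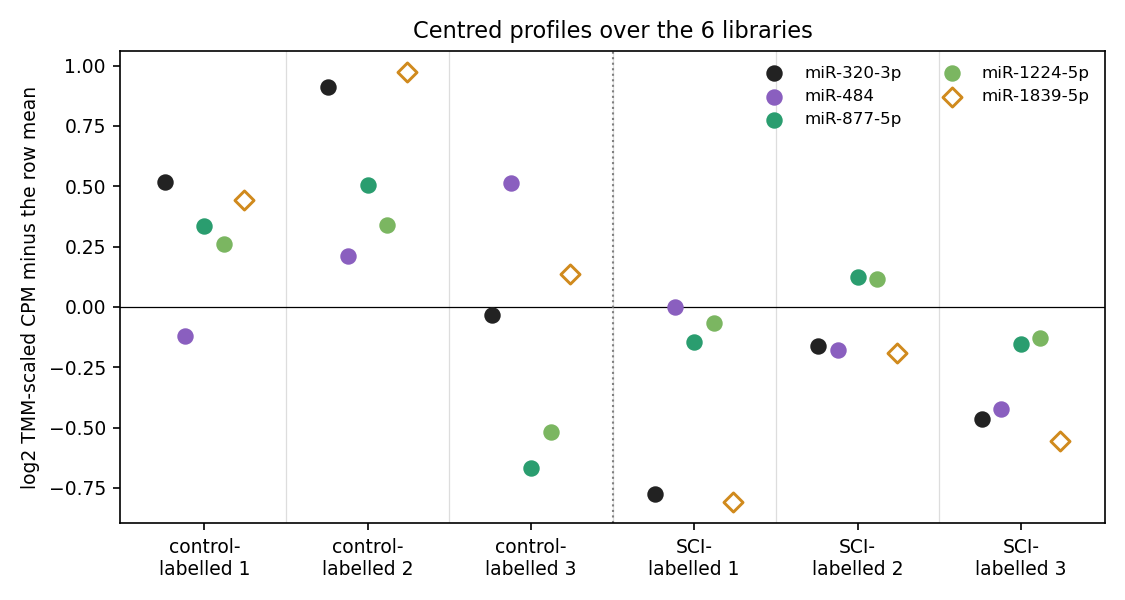
Log2 TMM-scaled CPM minus the mean of the row (y axis) in each of the 6 libraries (x axis), for the 4 members and for miR-1839-5p (open diamonds). miR-1839-5p, picked as the nearest candidate row, lies near miR-320-3p in the 6 libraries (root mean square difference 0.0906). Control-labelled library 3 is below 0 for miR-877-5p (-0.67) and miR-1224-5p (-0.52) but above it for miR-484 (0.51).

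Markers of some other cell types moved with the groups. The 4 red cell markers took 1.09% to 3.1% of counts in the control-labelled and 0.225% to 0.519% in the SCI-labelled libraries, and all 4 were lower. The 5 white blood cell and microglia markers took 0.205% to 0.296% and 0.0313% to 0.0447%, and all 5 were lower. The 5 neuron markers took 1.16% to 1.57% and 2.68% to 3.61%, with miR-128-3p and miR-218-5p higher and 3 not past the test, of which miR-124-3p had a log2 change of -0.52. None of the 3 oligodendrocyte, 3 skeletal muscle or 2 endothelium markers passed the edgeR test, and none had an unadjusted p under 0.05. Oligodendrocyte markers took 0.912% to 1.08% and 0.951% to 1.03% of counts, muscle markers 0.783% to 4.35% and 0.999% to 1.85%, and endothelium markers 1.41% to 2.7% and 1.49% to 1.87%. No marker of these lists was at 0 in any library. Their part in the change of miR-320-3p was not tested. With the red cell, skeletal muscle and miR-21a rows left out before scaling, miR-320-3p stood at -0.96 (edgeR adjusted p = 0.0212). That refit alters the scaling but keeps every read of miR-320-3p, so it cannot show the part of these cells. Red cell shares in control-labelled libraries 1, 2 and 3 were 3.1%, 2.61% and 1.09%, and miR-320-3p was at 383, 502 and 261 CPM. In SCI-labelled libraries 1, 2 and 3 the shares were 0.256%, 0.225% and 0.519%, and miR-320-3p was at 156, 239 and 194 CPM. Whether the share and the level went together was not tested.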

How the data were processed

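Small RNA libraries were made from 3 µg of total RNA per sample with the NEBNext small RNA kit, per the labels' protocols. The authors deposited whole-number read counts per miRNA, without normalization, and TPM values that equal CPM of the column total to within 2.74e-05. Bowtie and mm10 are named in the submitters' processing notes. For the miRBase release, the mismatch rule and reads with several matches, the answer is not given in the sources used here. Each value column names a library that 1 sample's description also names.

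Counts were tested in R 4.3.3 with edgeR 4.0.16: filterByExpr with a minimum count of 10, TMM scaling and the robust quasi-likelihood F test, fitted with the group alone. The Benjamini-Hochberg adjustment ran over 614 rows, with a threshold of 0.05. SE is the size of the log2 change over the square root of F. Alternatives used DESeq2 1.42.0 and limma 3.58.1. Libraries are taken as separate mice, and no pair agreed within sampling noise. If they are not, p-values measure only the spread between these samples. The members and lists were chosen with earlier results of these data known. The named rows are the members, their opposite arms, the tested rows of the lists, the 3 nearest profiles of each member, and miR-21a-5p and miR-223-3p. Other hairpins found from the annotation are named in the last section. Ratios other than that of miR-484 to miR-320-3p and the arm ratio of miR-877 were chosen after values were seen.

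In simulated data for this comparison, with 603 rows kept, 59.2% of rows changed 2-fold and 98% of rows changed 4-fold were recovered, and 2.5% of calls were unchanged rows. Counts were drawn independently for each row from the dispersions fitted here. No library stood apart and no cell mixture shifted in that draw. These shares therefore describe the simulated setting and are not error rates of the calls above.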

Additional observations from a re-analysis of the deposited data

How the results depend on the processing

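miR-320-3p kept its direction in all alternatives and its call in all that used the 6 libraries and in the fit without control-labelled library 3. With 1 library left out its log2 change ran from -1.13 to -0.72, that of miR-877-5p from -0.43 to 0.026 and that of miR-1224-5p from -0.28 to 0.067, and the number of members called lower was 0 to 1. With upper quartile scaling miR-1224-5p stood at 0.0084. miR-484 stayed below 0 and uncalled in each alternative, and miR-877-5p had no value at a mean of at least 50 CPM. Rows of the lists of unusual hairpins called higher, 3 in the report with miR-877-3p included, numbered 5 with the upper quartile or limma voom, 1 with the library total, limma on log2(TPM + 10), the replicate block or the red cell, muscle and miR-21a rows left out, and 0 at a mean of at least 50 CPM. With 1 library left out they numbered 0 to 6, and those called lower 0 to 2. Reference miRNAs called lower numbered 4 to 10 with 1 library left out.

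The replicate numbers did not pair the samples: the correlations of same-numbered libraries' deviations from their group means were -0.257, 0.172 and -0.178. These replicate numbers are those of the sample titles, and the deposited columns of the control-labelled samples carry other numbers. With the replicate block miR-320-3p stood at -0.93 (edgeR adjusted p = 0.0271). The miR-484 to miR-320-3p ratio had an exact permutation p of 0.5 when signs of the differences between same-numbered libraries were flipped. That test cannot go as low as the permutation of 3 against 3. The median log2 change of all rows moved from -0.07 to 0.04 with the upper quartile and to -0.15 with the library total, and to -0.14 with no filter. Counts of 3 to 8 for miR-1224-3p and 0 or 1 for miR-320-5p per library limit what can be said of these arms.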

Other observations

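A set of mirtrons can be read from the annotation alone, as the hairpins that fill an intron of GENCODE M21 to within 3 bases at each end. This set was drawn up after the members' values were seen and is given as a description. Of the 16 such hairpins, 13 had rows in the table, 23 rows in all, and 8 rows passed the filter. Of these 8, 1 was higher in the SCI-labelled libraries (miR-877-3p), 0 were lower and 7 did not pass the edgeR test, with a median log2 change of 0.40. For all tested rows the shares were 16.3% higher and 23.1% lower, with a median of -0.07. Reads were concentrated in few of these introns: miR-1981-5p, from an intron of Marc2, had 26061 reads over the 6 libraries, miR-1224-5p had 3141 and miR-877-5p had 874, while miR-6944-3p had 94 and miR-3547-3p had 41. Of the mirtron list, the hairpins Mir702 and Mir5132 did not fill an annotated intron, and the hairpin of miR-3102 had no entry in the reference and was not examined.

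Both hairpins of the snoRNA list overlap an annotated small nucleolar or small Cajal body RNA gene on their strand, and these classes were searched together. The gene is Snora36b for Mir664, and for Mir1839 it is a gene that itself bears the name Mir1839. Their ratios of 5p to 3p reads were lower in the SCI-labelled libraries. Reads of miR-1839-5p per read of miR-1839-3p were 37.2, 64.5 and 41 under the control label and 18.6, 27.1 and 22.3 under the SCI label. The groups did not overlap, and the ratio was 2.06-fold lower in the SCI-labelled group (exact permutation p = 0.1, the smallest possible; 0.275 adjusted over 11 ratios). For miR-664 the ratio of 5p to 3p reads was 0.643, 1.08 and 0.39 against 0.202, 0.352 and 0.3, 2.33-fold lower (exact permutation p = 0.1, adjusted 0.275). These pairs were chosen after their values were seen. Among 179 hairpins with both arms tested, the fitted changes of the arms differed by 1.05 in size for miR-1839 and 1.24 for miR-664. These ranked 43 and 33, and the median size was 0.65. Of other hairpins that overlap such a gene, miR-1843a (0.69) and miR-3068 (0.49) went the other way, and miR-1843b stood at -0.16.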
